A study of Homo sapiens with 6 samples.

Results

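The 10 genes described here make phosphatidylcholine and phosphatidylethanolamine: CHKA, CHKB, ETNK1, ETNK2, PCYT1A, PCYT1B, PCYT2, CHPT1, CEPT1 and PEMT. They are 10 of the 60675 genes in the count files. They were taken by function, as the genes of the Kennedy pathway together with PEMT, and the pathway was selected on the measured rise of PCYT1B, because it was among the largest after MTR4 knockdown in these same libraries. The values of PCYT1B are therefore a description, with no test, and the tests below concern the other 9 genes. RNA of PLC/PRF/5, a human liver cancer line, was sequenced in 3 libraries of control cells and 3 of cells with knockdown of MTR4 (MTR4 KD), the RNA helicase that feeds nuclear RNA to the exosome. The sample labels name the groups only as control and MTR4 KD, and the study's methods describe lentiviral short hairpin RNAs, constitutive or switched on by doxycycline, in cells selected with puromycin. By the study's text the RNA-seq compared an inducible MTR4 knockdown line without and with doxycycline, which the labels do not state. Whether the controls carried a scramble hairpin or received doxycycline is not in the labels, so the agent and the knockdown cannot be told apart here. The study reports that doxycycline left its glycolytic genes unchanged in cells with a scramble hairpin. The 10 genes described here were not among those. Nothing in the labels says that the 3 libraries of a group came from separate cultures, so p-values measure the spread between these libraries, which may be technical.

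Phosphatidylcholine is the main phospholipid of most animal membranes, and phosphatidylethanolamine is usually the next most abundant. In the Kennedy pathway, a kinase adds phosphate to choline or ethanolamine, a cytidylyl transferase turns the product into its CDP form, and a phosphotransferase joins that form to diacylglycerol. The cytidylyl transferase step is the usual rate-limiting step of the choline branch. In liver, PEMT adds a further route, since it methylates phosphatidylethanolamine to phosphatidylcholine with methyl groups from S-adenosylmethionine, and liver cells also secrete phosphatidylcholine into bile and on lipoproteins.

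The gene with the largest difference, PCYT1B, and its paralogue PCYT1A, at a log2 fold change of 0.19, have different stretches of sequence before their starts. RefSeq gives PCYT1B a pair of starts on chromosome X and PCYT1A 1 start on chromosome 3. The 250 bases before each start are printed below on the coding strand, together with those before the outer start of PCYT2, the ethanolamine counterpart of these genes (GRCh38.p14, all on the minus strand, motifs in capitals).
PCYT1B, outer start, chrX:24672888-24673137: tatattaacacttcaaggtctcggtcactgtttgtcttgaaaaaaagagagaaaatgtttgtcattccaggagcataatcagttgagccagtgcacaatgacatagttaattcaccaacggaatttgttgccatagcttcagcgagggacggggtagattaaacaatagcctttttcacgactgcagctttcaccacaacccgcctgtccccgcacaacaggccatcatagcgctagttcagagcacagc
PCYT1B, inner start, chrX:24647348-24647597: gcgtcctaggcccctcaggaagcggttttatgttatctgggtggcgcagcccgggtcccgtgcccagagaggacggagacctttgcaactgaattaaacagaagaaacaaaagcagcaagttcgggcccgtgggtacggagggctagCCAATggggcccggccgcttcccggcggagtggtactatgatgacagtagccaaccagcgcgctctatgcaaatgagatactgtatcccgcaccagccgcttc
PCYT1A, chr3:196287727-196287976: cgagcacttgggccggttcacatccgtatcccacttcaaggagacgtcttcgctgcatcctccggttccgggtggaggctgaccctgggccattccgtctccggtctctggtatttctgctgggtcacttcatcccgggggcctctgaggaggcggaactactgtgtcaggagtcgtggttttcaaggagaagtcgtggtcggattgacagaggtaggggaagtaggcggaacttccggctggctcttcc
PCYT2, outer start, chr17:81911400-81911649: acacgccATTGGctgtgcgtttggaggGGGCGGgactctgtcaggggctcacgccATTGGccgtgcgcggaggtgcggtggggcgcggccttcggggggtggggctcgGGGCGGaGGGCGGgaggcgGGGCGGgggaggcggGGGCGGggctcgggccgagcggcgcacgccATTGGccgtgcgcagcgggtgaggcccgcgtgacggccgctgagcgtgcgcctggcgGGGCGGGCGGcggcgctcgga
The motifs searched on both strands were the GC box (GGGCGG), the CCAAT box, the TATA box (spelled TATAAA) and the E-box (spelled CACGTG). The window before the outer start of PCYT1B had a GC content of 45.2% with 8 CpG dinucleotides and no match to these motifs. The window before its inner start had a GC content of 58.8% with 17 CpG dinucleotides and 1 CCAAT match, 103 bases before the start. The PCYT1A window had a GC content of 59.6%, 16 CpG dinucleotides and no match. The PCYT2 window had a GC content of 80.0%, 38 CpG dinucleotides, 7 GC boxes, of which the last pair overlap each other, and 3 CCAAT matches on the opposite strand. RefSeq windows were found for 9 of the 10 genes, all but CHKA, 14 in all. At least 1 GC box was in 9 of these 14 windows, against 42.6% of 35116 RefSeq promoter windows of this length. CCAAT was in 3 of the 14 (32.0% of all windows), the E-box in 1 (6.34%) and TATAAA in 0 (10.7%). The counts are per gene and do not say which start was used.

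The reads counted on genes numbered 60686786 to 72708682 per library, so every one of the 10 genes was read from at least 16 reads in each library, and all 10 were among the 18075 genes that passed the filter on low counts. The knocked-down gene, MTREX (the current symbol of MTR4), fell from 78.0 ± 8.25 CPM (SD, n = 3) to 45.8 ± 2.60 CPM (SD, n = 3), a log2 difference of -0.77 (adjusted p = 0.00641, edgeR's quasi-likelihood test). CPM are counts relative to library size, taken over reads on genes and scaled by TMM, and values of a gene are listed below in the order of replicates 1, 2 and 3. The libraries did not fall together by condition alone. Control replicates 1 and 3 and MTR4 KD replicate 3 had 34.7% to 37.5% of entries with a non-unique alignment, and control replicate 2 and MTR4 KD replicates 1 and 2 had 14.8% to 18.2%. The principal component with the largest share of variance, 43.2%, separated these 2 classes of library and the next, with 25.3%, separated the conditions. What made the classes is not stated in the sources used here. Each class holds both conditions, but MTR4 KD by only 1 library in the class with more non-unique alignments and control by only 1 in the other. Differences within a class therefore rest on 1 library of a condition. Values are given below for the comparison with condition as the only term and, where they differ, with the library class as a covariate. Summed markers of hepatocytes were at 24258 to 25735 CPM in the control and 24409 to 26248 CPM in the MTR4 KD libraries, with 11 of 11 genes measured. Those of fibroblasts were at 6.44 to 14.6 CPM over all 6 libraries and those of endothelial cells at 0.0995 to 1.70 CPM, while those of leukocytes were at 31.2 to 36.5 CPM in control and 26.9 to 29.4 CPM in MTR4 KD libraries. Mean levels under 1 CPM were found for 2 of 6 fibroblast, 4 of 4 endothelial and 3 of 5 leukocyte markers. Most of the leukocyte sum came from 1 gene, at 27.9 to 31.6 CPM in control and 24.4 to 25.8 CPM in MTR4 KD libraries. A further endothelial marker of the list had no match among the genes counted. Of the 11 hepatocyte markers, 4 were called higher in the MTR4 KD libraries and 0 lower, with condition as the only term. Over all tested genes, 1.48% were called higher and 2.12% lower. The part of these markers in the results below was not tested.

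PCYT1B (ENSG00000102230, chromosome X, 24558087 to 24672887) encodes CTP:phosphocholine cytidylyl transferase beta, the less widely expressed of the enzymes that make CDP-choline. It was at 1.95, 1.84 and 1.96 CPM in the controls, against 8.25, 7.50 and 7.32 CPM after knockdown. These values rest on 120, 133 and 118 reads in the control libraries and 506, 501 and 449 reads in the MTR4 KD libraries. The lowest MTR4 KD library thus lay far above the highest control library, and the libraries within a group lay close together. The mean was 1.91 ± 0.0662 CPM (SD, n = 3) in control and 7.69 ± 0.490 CPM (SD, n = 3) in MTR4 KD libraries. The fitted ratio was 4.02 and the log2 fold change 2.01. Within the library class with more non-unique alignments the log2 difference was 1.88, and within the class with fewer it was 2.07. In the ordering of rises from which it was picked, limited to genes past the thresholds of that choice and with a mean of at least 100 counts, the genes on either side of it were FER1L6, at a log2 fold change of 2.06, and SULT2A1, at 1.99. None of its annotated exon sequence is overlapped by another gene (0%), and it shared no run of 50 bases with PCYT1A or any other of the 10 genes. For the other members except CHKB, 0% to 28.3% of the exon sequence is overlapped by another annotated gene.

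PCYT1A (ENSG00000161217, chromosome 3, 196234368 to 196287726) encodes the alpha form of the same enzyme, the main form in most tissues. Its level was 95.7, 109 and 95.4 CPM in the controls, against 120, 122 and 101 CPM after knockdown. The groups overlapped, since MTR4 KD replicate 3 lay below control replicate 2. Between the groups, the log2 fold change was 0.19 (95% interval -0.03 to 0.41, adjusted p = 0.333) and, with the library class, 0.11 (adjusted p = 0.0655).

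**Figure D1:**
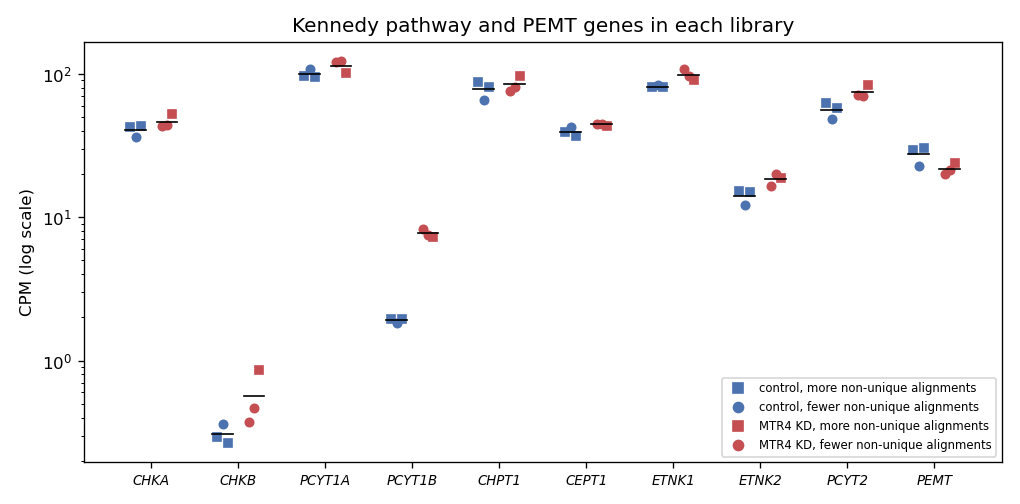
Level of each of the 10 genes in every library, in CPM on a log scale. Points are libraries (blue control, red MTR4 KD, squares for libraries with more and circles for libraries with fewer non-unique alignments) and bars are means of 3 libraries. PCYT1B goes from 1.91 to 7.69 CPM on average, with no overlap of the groups, and CHKB lies under 1 CPM in all 6 libraries.

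PCYT1A was far more abundant than PCYT1B in every library, so the difference in PCYT1B concerned a small part of the summed transcripts. Levels of different genes are compared here in RPKM, which is CPM divided by the length of annotated exons in kilobases. PCYT1B made up 2.78%, 2.32% and 2.80% of the summed RPKM of PCYT1A and PCYT1B in the controls, against 8.83%, 7.98% and 9.28% after knockdown. The mean share was 2.64% ± 0.271 (SD, n = 3) in control and 8.70% ± 0.660 (SD, n = 3) in MTR4 KD libraries. With the longest transcript as the length, the shares were 1.90% and 6.39%. The summed level of the pair was 12.9 ± 0.936 RPKM (SD, n = 3) in control and 15.7 ± 1.51 RPKM (SD, n = 3) in MTR4 KD libraries. More cells that express a gene and more RNA of it per cell cannot be told apart in these bulk samples.

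**Figure D2:**
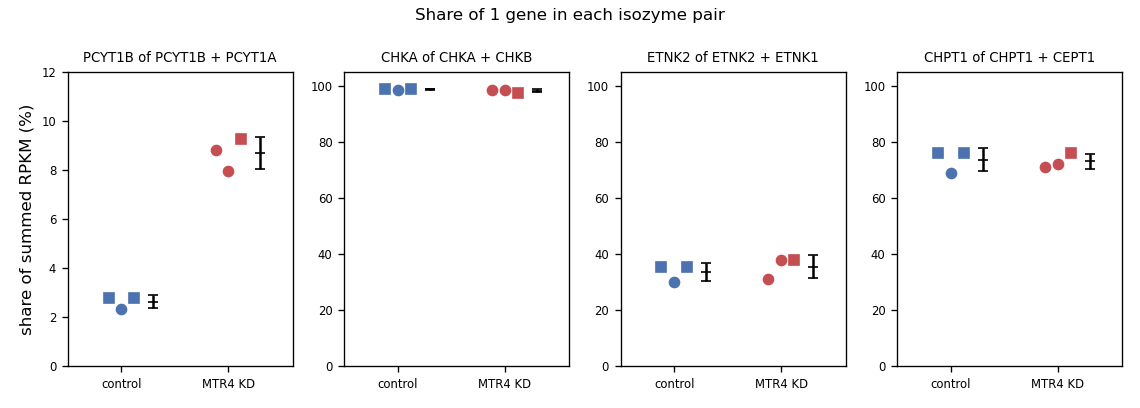
Share of 1 gene in the summed RPKM of an isozyme pair in each library (percent, colours and symbols as in the plot of levels). Black bars give the mean and SD of 3 libraries. The PCYT1B share goes from 2.64% to 8.70% while in the other 3 pairs the means of the groups differ by no more than about the spread between libraries.

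Of the 9 other genes, 0 passed the test with condition as the only term, in either direction, where 1.48% of the 18075 tested genes were called higher and 2.12% lower. At an unadjusted p under 0.05, 4 of the 9 were higher and 1 was lower, where 8.93% of all tested genes were higher and 9.84% lower. By DESeq2's Wald test, PCYT2 (adjusted p = 0.0241) and ETNK1 (adjusted p = 0.0464) were called higher and no member lower, where 3.64% of the 16301 genes with an adjusted p were called higher and 4.72% lower. With limma-voom, 0 of the 9 were called, where 250 of the 18075 tested genes were called higher and 361 lower. With the library class as a covariate, 5 of the 9 were called higher (PCYT2, CHKA, CHPT1, ETNK1 and ETNK2) and 1 was called lower (PEMT), where 9.43% of all tested genes were called higher and 10.8% lower. In 6 of the 9, every MTR4 KD library lay above every control library, which held for 12.1% of all tested genes, and in 0 of the 9 every MTR4 KD library lay below, against 12.6%. The median log2 fold change of the 9 was 0.19, against 0.0062 over all tested genes. In both library classes, 8 of the 9 had a positive difference, and PEMT had a negative one in both. Each of these differences rests on 1 library of a condition. The share of all tested genes with the same sign in both classes was not computed.

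The kinases that begin the choline branch were far apart in counted reads. CHKA (ENSG00000110721, chromosome 11, 68052859 to 68121388), the choline kinase with more counted reads, was at 42.7, 36.1 and 43.0 CPM in the controls, against 43.2, 43.9 and 52.0 CPM after knockdown. The groups did not overlap, but the highest control and the lowest MTR4 KD library were almost level. Its log2 fold change came to 0.19 (95% interval -0.05 to 0.43, adjusted p = 0.367), and 0.28 with the library class (adjusted p = 0.0013). Its log2 difference was 0.28 within the class with more non-unique alignments and 0.27 within the other.

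CHKB (ENSG00000100288, chromosome 22, 50578963 to 50582849), the other choline kinase, had only 18, 26 and 16 reads in the controls, against 23, 31 and 53 after knockdown. In CPM, the control libraries were at 0.292, 0.359 and 0.265 and the MTR4 KD libraries at 0.375, 0.464 and 0.864, with MTR4 KD replicate 3 standing above the rest. The fit gave a log2 fold change of 0.88 (95% interval -0.03 to 1.80, adjusted p = 0.281), and 0.46 without MTR4 KD replicate 3. Its level is uncertain, because 72.5% of its exon sequence is shared with the readthrough gene CHKB-CPT1B on the same strand, and reads on a shared stretch can be left uncounted as ambiguous (5.89% to 8.29% of all entries per library). CHKB-CPT1B itself had 0 to 7 reads per library. As counted, CHKA made up 99.0% ± 0.266 (SD, n = 3) of the summed RPKM of both kinases in control and 98.4% ± 0.541 (SD, n = 3) in MTR4 KD libraries. These shares carry the same uncertainty as the level of CHKB.

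With the library class in the edgeR fit, the ethanolamine kinases and PCYT2 were called higher in the MTR4 KD libraries. So were CHKA and CHPT1 of the choline branch. At the last step of the ethanolamine branch, neither SELENOI (log2 fold change -0.0043 in that fit, adjusted p = 0.961) nor CEPT1 was called. ETNK1 (ENSG00000139163, chromosome 12, 22625171 to 22690665), an ethanolamine kinase of many tissues, was at 80.5, 83.0 and 80.1 CPM in the controls, against 107, 95.7 and 90.3 CPM after knockdown. The control libraries were nearly equal, and all 3 MTR4 KD libraries were higher. The fitted log2 fold change was 0.27 (95% interval 0.09 to 0.44, adjusted p = 0.118), and 0.23 with the library class (adjusted p = 0.0071).

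ETNK2 (ENSG00000143845, chromosome 1, 204131062 to 204152044), the ethanolamine kinase known from liver, was at 15.1, 12.1 and 14.9 CPM in the controls, against 16.4, 20.0 and 18.6 CPM after knockdown. Control replicate 2 was the lowest library and the groups did not overlap. Between the groups, the log2 fold change was 0.38 (95% interval 0.10 to 0.66, adjusted p = 0.144), and 0.45 with the library class (adjusted p = 0.0037). ETNK2 made up 33.7% ± 3.15 (SD, n = 3) of the summed RPKM of the ethanolamine kinases in control and 35.7% ± 3.99 (SD, n = 3) in MTR4 KD libraries, a difference within the spread between libraries.

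PCYT2 (ENSG00000185813, chromosome 17, 81900958 to 81911399) makes CDP-ethanolamine, the step that limits the ethanolamine branch. It was at 62.0, 48.3 and 58.0 CPM in the controls, against 71.0, 70.0 and 83.6 CPM after knockdown. The groups did not overlap, and within each group the libraries with more non-unique alignments were higher. Its log2 fold change came to 0.42 (95% interval 0.15 to 0.68, adjusted p = 0.107), and 0.51 with the library class (95% interval 0.41 to 0.61, adjusted p = 6.34e-06), where it was the smallest adjusted p of the 9 genes. The differences were 0.48 and 0.54 within the classes with more and with fewer non-unique alignments. NPB, annotated on the opposite strand over 28.3% of the exon sequence of PCYT2, had 0 reads in all 6 libraries. As the strand setting of counting is not given, reads on this stretch may have been left uncounted as ambiguous. The reads of NPB therefore do not show whether PCYT2 was fully counted.

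The phosphotransferases finish the pathway. CHPT1 (ENSG00000111666, chromosome 12, 101697640 to 101729074), which makes phosphatidylcholine from CDP-choline, was at 87.3, 65.0 and 81.3 CPM in the controls, against 76.2, 80.9 and 96.2 CPM after knockdown. The groups overlapped, and control replicate 2 was the lowest of the 6 libraries. The fit gave a log2 fold change of 0.12 (95% interval -0.19 to 0.42, adjusted p = 0.689) which turned to -0.0023 without control replicate 2. With the library class it was 0.23 (adjusted p = 0.0043). CEPT1 (ENSG00000134255, chromosome 1, 111139499 to 111185104), which uses both CDP-choline and CDP-ethanolamine, was at 39.5, 42.2 and 36.6 CPM in the controls, against 44.8, 44.8 and 43.3 CPM after knockdown. All MTR4 KD libraries were above the control libraries by a small margin. Its log2 fold change was 0.17 (95% interval 0.0026 to 0.33, adjusted p = 0.260), and 0.14 with the library class (adjusted p = 0.0940). The CHPT1 share of the summed RPKM of the phosphotransferases was 73.8% ± 4.17 (SD, n = 3) in control and 73.2% ± 2.69 (SD, n = 3) in MTR4 KD libraries.

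PEMT (ENSG00000133027, chromosome 17, 17505563 to 17592142) was the only one of the 10 genes whose mean was lower after knockdown. It was at 29.5, 22.6 and 30.2 CPM in the controls, against 19.9, 21.2 and 23.7 CPM after knockdown. Control replicate 2 lay below MTR4 KD replicate 3, so the groups overlapped. The fitted log2 fold change was -0.34 (95% interval -0.65 to -0.04, adjusted p = 0.210) and -0.47 without control replicate 2 (adjusted p = 0.0485). With the library class it was -0.24 (95% interval -0.38 to -0.09, adjusted p = 0.0217), with differences of -0.33 and -0.14 within the classes with more and with fewer non-unique alignments.

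**Figure D3:**
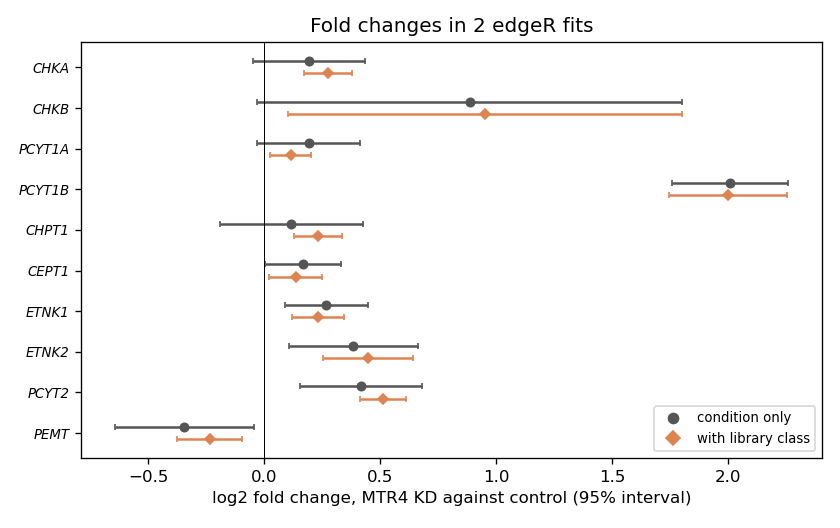
Log2 fold change of the 10 genes, MTR4 KD against control, with 95% intervals, from edgeR fits with condition only (grey circles) and with the library class as a covariate (orange diamonds), 3 libraries per group. PCYT1B lies at 2.01. As it was chosen for its rise in these same libraries, its interval is a description and no test. The others lie between -0.34 and 0.88, and the intervals of all but PCYT1B narrow with the library class.

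In the control libraries the order of levels per length was PEMT (15.9 ± 2.42 RPKM), CHPT1 (13.0 ± 1.92), PCYT1A (12.5 ± 0.948), CHKA (10.5 ± 0.997), PCYT2 (8.16 ± 1.02), ETNK1 (6.10 ± 0.117), CEPT1 (4.56 ± 0.328), ETNK2 (3.12 ± 0.372), PCYT1B (0.338 ± 0.0117) and CHKB (0.107 ± 0.0169), each as mean and SD of 3 libraries. The ranges of PEMT and CHPT1 overlapped, as did those of CHPT1 and PCYT1A, so the order among these 3 is not resolved. From PCYT1A downwards no neighbours in the order overlapped. With the longest transcript as the length, ETNK1 (11.5 RPKM) and PCYT2 (11.0 RPKM) changed places. At the cytidylyl transferase step of the choline branch, PCYT1A was thus abundant and PCYT1B was at 0.338 RPKM on average. At the kinase step, CHKA was abundant and the counted level of CHKB was low. That level of CHKB, and its place in the order, are uncertain because of the exon sequence it shares with CHKB-CPT1B.

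The neighbourhood of PCYT1B was examined within 500 kb. Described are the 4 neighbours with a mean of at least 100 counts. Of these, ZFX, a zinc finger transcription factor, was called higher, at 127 CPM in control and 173 CPM in MTR4 KD libraries on average, with a log2 fold change of 0.45 (adjusted p = 0.0198). This call was lost without control replicate 1 or 3 or without MTR4 KD replicate 1 or 2 (adjusted p = 0.0865 to 0.118, log2 fold change 0.40 to 0.46). POLA1, the catalytic subunit of DNA polymerase alpha, was at -0.12 (log2 fold change, adjusted p = 0.496), and at -0.17 with the library class (adjusted p = 0.0139). PDK3, a pyruvate dehydrogenase kinase, was at -0.14 (adjusted p = 0.480) and EIF2S3, a subunit of a translation initiation factor, at -0.04 (adjusted p = 0.827). PCYT1B-AS1 had 1 read in MTR4 KD replicate 1 and 0 in the other libraries.

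The genes whose log2 CPM followed that of PCYT1B most closely over the 6 libraries, among 12860 genes with a mean of at least 100 counts, were BDH1 (Pearson's r = 0.999), SERPIND1 (0.998), PBLD (0.997), BBOX1 (0.996) and C11orf71 (0.996). The 6 points share their libraries and fall into 2 groups, and no p is attached to these correlations. BDH1, a ketone body dehydrogenase of mitochondria, was at 11.5, 11.5 and 11.9 CPM in the controls, against 24.9, 24.4 and 24.4 CPM after knockdown. The log2 fold changes of the 5 genes were between 0.57 (SERPIND1, heparin cofactor II) and 1.64 (BBOX1, the last enzyme of carnitine synthesis).

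Other genes around the pathway were taken from 9 lists of 77 genes by function, of which 73 were tested. With condition as the only term 3 (4.11%) were called higher and 3 (4.11%) lower, where 1.48% of all tested genes were called higher and 2.12% lower. The median log2 fold change of the 73 was 0.04. With the library class, 12 were called higher and 13 lower, against the 9.43% and 10.8% of all tested genes given above. The 3 genes called higher with condition only all act in choline oxidation and the methyl cycle, a list with 12 tested genes. CHDH, which oxidises choline in mitochondria, went from 67.9 to 93.4 CPM on average (log2 fold change 0.46, adjusted p = 0.0104). SARDH, which takes the methyl group off sarcosine, went from 14.7 to 22.7 CPM (0.62, adjusted p = 0.0192). MAT1A, the liver form of the enzyme that makes S-adenosylmethionine, went from 22.9 to 30.2 CPM (0.40, adjusted p = 0.0483). The other 9 tested genes of this list did not pass the test, with log2 fold changes of 0.05 to 0.41.

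The genes called lower with condition only came from 3 lists. GPAT3, which acylates glycerol-3-phosphate, was the 1 gene called among 11 that supply diacylglycerol and fell from 73.3 to 58.4 CPM (log2 fold change -0.33, adjusted p = 0.0345). LPCAT4, which acylates lysophospholipids, was the 1 called among 8 of its list and fell from 35.2 to 26.7 CPM (-0.40, adjusted p = 0.0433). MTTP, which loads lipid onto lipoproteins, was the 1 called among 6 genes of lipid transfer and export and fell from 98.5 to 75.9 CPM (-0.38, adjusted p = 0.0191). None of the 7 tested choline transporters was called, nor any of the 4 genes of the last ethanolamine step and phosphatidylserine, the 7 of the CDP-diacylglycerol branch, the 15 of phosphatidylcholine breakdown or the 3 of sphingomyelin synthesis. With the library class, 5 of the 11 diacylglycerol genes were called lower and 2 higher, where 10.8% of all tested genes were called lower and 9.43% higher. This list is given here because it had the most calls of the 9 lists, which differ in size. Without control replicate 1, the number of calls over the 9 lists was 1 higher and 0 lower, and without control replicate 3, MTR4 KD replicate 1 or MTR4 KD replicate 2 it was 0 in either direction.

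**Figure D4:**
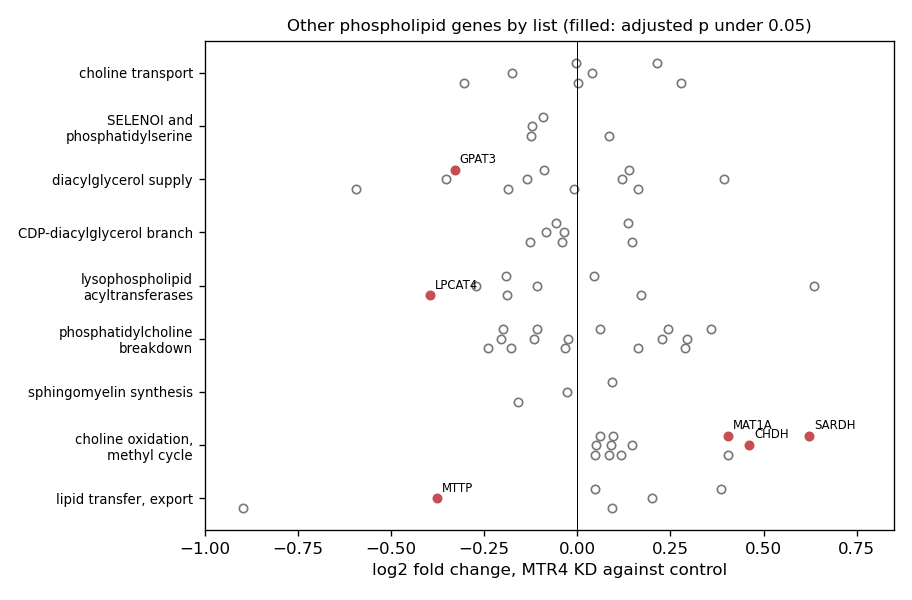
Log2 fold change, MTR4 KD against control, of the 73 tested genes of other phospholipid lists, with condition as the only term. Each point is a gene, filled and named where its adjusted p is under 0.05. The 3 filled points on the right are CHDH, SARDH and MAT1A and the 3 on the left are GPAT3, LPCAT4 and MTTP, and every other gene is open.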

How the data were processed

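RNA-seq of PLC/PRF/5 cells gave 3 control and 3 MTR4 KD libraries. Per the labels, the authors aligned reads with HISAT2 2.1.0 to GRCh38, and HTSeq and DESeq2 are named among their tools. They deposited raw counts of reads per Ensembl gene, without normalization. Ambiguous, non-unique, unaligned and similar entries (37.7% to 49.3% of a library) were left out of library sizes. The strand setting of counting is not given in the sources used here. Groups came from the labels.

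Counts were filtered with filterByExpr (minimum 10 counts), scaled by TMM and compared with edgeR 4.0.16 (quasi-likelihood test, condition only, Benjamini-Hochberg over all 18075 tested genes, calls at adjusted p under 0.05) in R 4.3.3 with limma 3.58.1 and DESeq2 1.42.0. The method was tested on simulated data. Differences within library classes are of mean log2(CPM + 0.05). Tables and plots were made with Python 3.11.15, pandas 2.3.3 and matplotlib 3.10.9. Exon lengths, overlaps and shared 50-base runs came from GENCODE v44 on GRCh37, positions and promoters from RefSeq.

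Named are the 10 genes, MTREX, at most 3 called genes per direction and list, tested genes within 500 kb of PCYT1B with a mean of at least 100 counts (a minimum added after the values were seen), and the 5 genes most correlated with it. FER1L6 and SULT2A1 were named after their values were seen. Members, lists and the library class were chosen with earlier results of these data known. The alternatives were other normalizations, filters, tests and thresholds, the replicate block, the library class, another gene length and each library left out. Other than PCYT1B-AS1, neighbours of PCYT1B with lower counts are not reported here. Same-numbered libraries were not treated as paired.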

Additional observations from a re-analysis of the deposited data

How the results depend on the processing

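The log2 fold change of PCYT1B was 1.96 to 2.04 over the 14 alternatives. As PCYT1B was chosen for its rise in these same libraries, this range is a description only. MTREX stayed called with each library left out (-0.82 to -0.68). Members other than PCYT1B called higher numbered 2 by DESeq2, 1 (PCYT2, adjusted p = 0.0425) with the replicate block and 5 with the library class, and 0 with any library left out. Members called lower numbered 1 with the library class and 0 to 1 with a library left out. For the replicate block, deviations of same-numbered libraries correlated at -0.24, 0.32 and 0.35. Control and MTR4 KD libraries of the same class correlated at 0.32 to 0.36 whatever their number. These correlations follow the library class, so they cannot show whether the numbers pair the libraries. Over all tested genes, 593 were higher and 770 lower by DESeq2, 342 and 515 with the replicate block, and 1705 and 1944 with the library class. The numbers were 58 and 92 with a fold over 2 as well and 70 and 118 at adjusted p under 0.01. With a library left out they were 52 to 300 and 85 to 503. Other phospholipid genes called higher numbered 6 by DESeq2, 12 with the library class and 0 to 3 with a library left out, and those called lower 13 with the library class and 0 to 3 with a library left out. PCYT1B neighbours called numbered 2 with the library class and 0 to 1 with a library left out. Values of uncalled genes that changed sign were CHPT1 (-0.0023 to 0.21 with a library left out) and EIF2S3 (-0.090 to 0.022 with a library left out). The cause was not tested. Depth limits CHKB, with 16 to 53 reads.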
